A study of Homo sapiens with 24 samples.

Results

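The transcripts of 10 genes of the cell cycle engine were followed in HEK293T cells that differ in SETD2: the cyclin genes CCNA2, CCNB1, CCNB2, CCND1, CCND2, CCND3, CCNE1 and CCNE2, and the cyclin-dependent kinase genes CDK1 and CDK2. They were taken by gene name as 10 of 58884 genes, and each was listed exactly once in each of 2 expression tables. HEK293T is a transformed line from human embryonic kidney that carries the SV40 large T antigen, a viral protein that binds RB and p53. SETD2 is the enzyme that places trimethylation on lysine 36 of histone H3. RNA was measured by sequencing in 10 libraries, 2 per group. The first table holds untreated WT and untreated KO cells. The KO label stands for cells that carry a disruption in each of their own SETD2 alleles. The second table holds untreated KO cells and KO cells transfected with SETD2 FL, the full-length protein, or SETD2 C, a fragment of residues 1404 to 2564 that the sample labels call N3. Both constructs carried a tag and were driven by the CMV promoter. Untreated KO cells were not transfected per the labels, so transfection and construct cannot be told apart against KO, whereas the SETD2 FL and SETD2 C groups were both transfected. Values are TPM, abundances adjusted for transcript length and expressed as a part of all RNA read in a library. TPM keeps no read counts, so sequencing depth is unknown.

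Cyclins are the regulatory subunits of cyclin-dependent kinases, and they come and go as a cell passes from G1 through DNA synthesis to mitosis. The D cyclins, encoded by CCND1, CCND2 and CCND3, act in G1 with CDK4 and CDK6 on the RB protein, and their transcription follows growth signals. The E cyclins drive entry into S phase with CDK2, cyclin A2 acts with CDK2 and later with CDK1, and the B cyclins take the cell into mitosis with CDK1. Transcripts of the E, A and B cyclins and of CDK1 are periodic: E2F factors act on the early group, and the DREAM, B-MYB and FOXM1 complexes act on the late group. RNA from a bulk culture averages over all phases, so a change in the share of cells in a phase and a change in transcript per cell cannot be told apart.

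SETD2 itself was read first. In the first table the WT labels went with a TPM of 12.6 and 14.8 and the KO labels with 16.2 and 16.3. Both KO labels thus sat above both WT labels for this transcript, with no call (adjusted p = 0.408 from limma), and a transcript level does not check a disruption that leaves the RNA in place. The labels were therefore taken as given. In the other table the KO libraries had 12.0 and 12.2, those with SETD2 FL had 439 and 422, and those with SETD2 C had 1329 and 1264, counted on whole gene models although the SETD2 C construct is part-length. The fragment was thus the more abundant transcript (log2 fold change from SETD2 FL of 1.46, standard error 0.06, adjusted p = 7.1e-06 from limma). Amount and length of the construct therefore differ together between these groups and cannot be told apart. Of the 7 markers listed for HEK293 cells, VIM, the intermediate filament vimentin, was the most abundant at a TPM of 444 to 926, and PAX2, a kidney transcription factor, was the lowest at 0.99 to 2.21. PTPRC, which marks white blood cells, was at most 0.02, endothelial markers were at most 0.2, and ALB of hepatocytes was at most 0.38. COL1A1, a fibroblast collagen, reached 12.1.

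Some whole-library measures moved with the groups. Mitochondrially encoded transcripts made up 7.04% and 6.23% of TPM in KO of the second table, 10.95% and 7.79% in SETD2 FL, and 2.93% and 3.37% in SETD2 C. Long noncoding RNAs made up 1.48% and 1.47% in KO, 1.33% and 1.33% in SETD2 FL, and 1.98% and 2.07% in SETD2 C. Genes with a TPM above 0 numbered 24691 and 24306 in KO, 25440 and 25134 in SETD2 FL, and 27104 and 26139 in SETD2 C. In the first table, WT replicate 1 stood apart with 23.2% mitochondrial transcripts, against 14.1% in WT replicate 2 and 12.0% and 12.4% in KO. With TPM rescaled without mitochondrial genes and SETD2, CDK1 was still called higher in both SETD2 C comparisons and CCND2 and CCND3 were not called against KO. The part of the other measures in the results on cyclins was not tested.

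All 10 genes passed the filter on low values (TPM 0.5 or more, 2 libraries or more) in both tables, the lowest single value being 8.52 for CCNE2. The order of levels put the mitotic pair first in every group. In KO of the second table, CCNB1, encoding cyclin B1, had the highest TPM of 163 ± 2.09 (SD, n = 2), followed by CDK1 at 113 ± 3.96, CDK2 at 80.4 ± 3.70, CCNA2 at 64.9 ± 0.990 and CCNB2 at 58.6 ± 0.771. The G1 and G1/S cyclins came after a gap, from CCND3 at 26.6 ± 1.19 through CCNE1, CCND2 and CCND1 to CCNE2 at 8.89 ± 0.347. No neighbours in that order overlapped in KO or with SETD2 C, and with SETD2 FL only CCNA2 and CCNB2 did. With SETD2 C the second place was held by CDK1 at 187 ± 8.18, close below CCNB1 at 204 ± 7.69. In the WT libraries the neighbours were less clear: CDK1 at 77.5 ± 16.3, CCNA2 at 71.5 ± 13.4, CCNB2 at 66.6 ± 6.43 and CDK2 at 58.4 ± 9.42 overlapped each with the next. CCNB1 stood above them at 117 ± 11.9. The tables were made separately, so a level in one table is not tested against a level in the other.

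**Figure D1:**
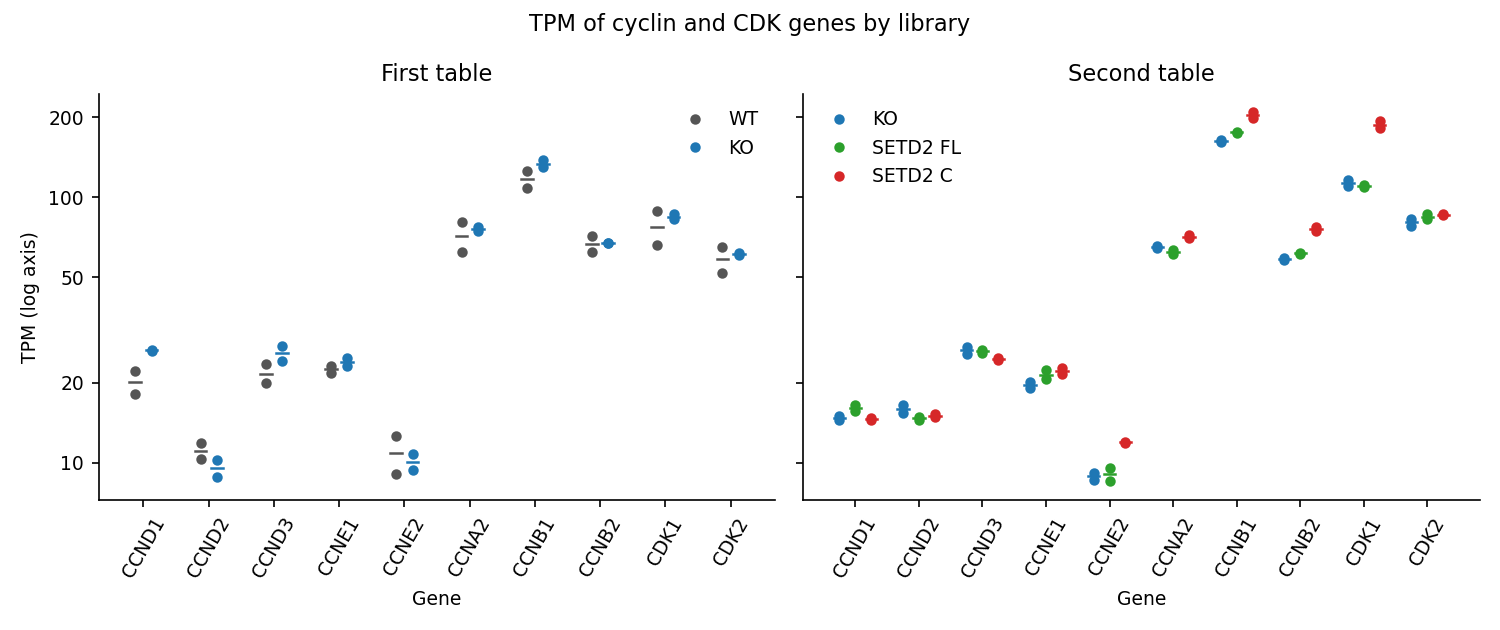
TPM of the 10 genes on a log axis, with a point per library and a bar at the group mean, WT and KO of the first table on the left and KO, SETD2 FL and SETD2 C of the second on the right. CCNB1 and CDK1 lie highest in every group, and the SETD2 C points of CDK1, at 182 and 193, lie above the KO and SETD2 FL points, all of which are at 116 or below.

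The late genes of this family are textbook examples of promoters read through a CCAAT box, bound by NF-Y, and a CHR element, bound by the MuvB core of DREAM. Because CDK1, CCNB1 and CCNB2 were called higher together with SETD2 C against KO while CCNA2 was not called, and CDK1 and CCNB2 but not CCNB1 against SETD2 FL, the 4 promoters are shown for comparison. Sequences are from RefSeq on GRCh38.p14, 250 bases before to 50 bases after a listed start, and 9 of the 10 genes were looked up. Of these, 6 matched, with 9 promoters, and CCND1, CCND2 and CDK2 did not. Searches were on both strands, with overlapping matches counted, for TTTGAA (CHR-like), CCAAT, and the E2F-like TTTCCCGC, TTTGGCGC and TTTCGCGC. Capitals mark matches, and TTCAAA and ATTGG are matches on the opposite strand. CDK1 has 2 listed starts with overlapping windows, and the downstream one, chr10:60778228-60778527 on the plus strand, is shown. It held more matches than the upstream window, which is the one at the annotated gene start, 60778331. Which start these cells use was not measured. The CCNB1 window is chr5:69166900-69167199 on the plus strand, that of CCNB2 is chr15:59104896-59105195 on the plus strand, and that of CCNA2 is chr4:121823834-121824133 on the minus strand, written 5′ to 3′ of the gene.
CDK1: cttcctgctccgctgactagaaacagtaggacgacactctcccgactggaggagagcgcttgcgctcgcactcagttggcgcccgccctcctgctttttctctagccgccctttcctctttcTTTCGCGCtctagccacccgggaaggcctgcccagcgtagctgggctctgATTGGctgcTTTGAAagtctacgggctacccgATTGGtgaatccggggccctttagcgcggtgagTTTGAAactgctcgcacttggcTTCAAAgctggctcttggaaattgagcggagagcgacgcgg
CCNB1: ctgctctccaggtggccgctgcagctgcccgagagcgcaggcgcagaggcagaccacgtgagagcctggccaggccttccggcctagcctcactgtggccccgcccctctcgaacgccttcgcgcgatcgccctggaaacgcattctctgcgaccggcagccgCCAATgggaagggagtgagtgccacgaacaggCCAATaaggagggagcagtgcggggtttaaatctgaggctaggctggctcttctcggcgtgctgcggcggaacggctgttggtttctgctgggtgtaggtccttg
CCNB2: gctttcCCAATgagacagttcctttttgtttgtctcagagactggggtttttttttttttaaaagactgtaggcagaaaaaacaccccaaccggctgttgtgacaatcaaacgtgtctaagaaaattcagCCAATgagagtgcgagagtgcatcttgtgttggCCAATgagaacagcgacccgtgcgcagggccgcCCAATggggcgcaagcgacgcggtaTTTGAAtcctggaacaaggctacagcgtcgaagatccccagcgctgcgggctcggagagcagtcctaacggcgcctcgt
CCNA2: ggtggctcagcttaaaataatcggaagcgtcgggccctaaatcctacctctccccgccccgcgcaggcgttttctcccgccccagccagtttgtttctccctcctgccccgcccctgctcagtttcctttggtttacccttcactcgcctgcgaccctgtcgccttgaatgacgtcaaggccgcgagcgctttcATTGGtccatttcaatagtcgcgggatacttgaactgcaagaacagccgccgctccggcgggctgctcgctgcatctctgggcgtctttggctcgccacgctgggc
The CDK1 window shown held 3 CHR-like matches, 2 CCAAT boxes and 1 E2F-like match, and the upstream CDK1 window, chr10:60778081-60778380, held 1 of each. The CCNB2 window held 1 CHR-like match and 4 CCAAT boxes, the CCNB1 window 2 CCAAT boxes, and the CCNA2 window 1 CCAAT box. Among the windows not shown, those of CCND3 at chr6:41939156-41939455 and chr6:41941759-41942058 held 1 CCAAT box each. The remaining CCND3 window and the CCNE1 window held no match. Over 35114 promoters of the same length, TTTGAA occurred in 15.162%, CCAAT in 34.616% and an E2F-like match in 2.737%, while 1.783% held TTTGAA with at least 2 CCAAT boxes. These are matches of letters only, and binding at them was not measured in the values used here. TTTGAA was the only CHR-like string searched. A window without such a match, as for CCNB1 and CCNA2, may hold the element in another form. The match counts therefore do not set these genes apart.

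With SETD2 C, the mitotic kinase CDK1 rose most among the 10 genes, cyclins B1, B2 and E2 rose slightly, and the D cyclins CCND2 and CCND3 fell slightly relative to KO, decreases that were not called without scaling. Relative to SETD2 FL, CDK1, CCNB2 and CCNE2 were higher and CCND1 and CCND3 were lower. In the comparison of SETD2 C with KO, 4 of the 10 genes were called higher and 2 lower at an adjusted p of at most 0.05 from limma, while 21.1% of all 15929 genes tested were called higher and 15.1% lower. In the comparison of SETD2 C with SETD2 FL, 3 of the 10 were called higher and 2 lower by limma, against 21.4% and 16.8% of all genes. Calls were thus frequent in the whole transcriptome, and counts of this size are not a result about cyclins as a group. Among the 10 genes the median was 0.01 on the log2 scale against KO and -0.01 against SETD2 FL, beside 0.05 and 0.04 over all genes. At a change of at least 2-fold with the same adjusted p, limma called 0 of the 10 against KO, where 4.06% of all genes passed. An unadjusted p under 0.05 was reached there by 6 of the 10 and by 47.1% of all genes. The same 2-fold rule called 0 of the 10 by limma against SETD2 FL, where 3.79% of all genes passed. There 5 of the 10 had an unadjusted p under 0.05, as had 48.8% of all genes. The labels do not say that replicates were separate cultures, so p-values may measure technical spread only. The balance of calls over all genes depended on scaling: against KO, 58.3% of called genes were higher after median ratio scaling, 83.2% without scaling, 75.7% when TPM was rescaled without mitochondrial genes and SETD2, and 46.9% after quantile normalization. Against SETD2 FL it was 56% after median ratio scaling, 77.5% without scaling and 46.8% after quantile normalization. The balance also depended on the threshold. Under the 2-fold rule 597 genes were higher and 50 lower against KO (92.3% higher), and 536 higher and 67 lower against SETD2 FL (88.9% higher).

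**Figure D2:**
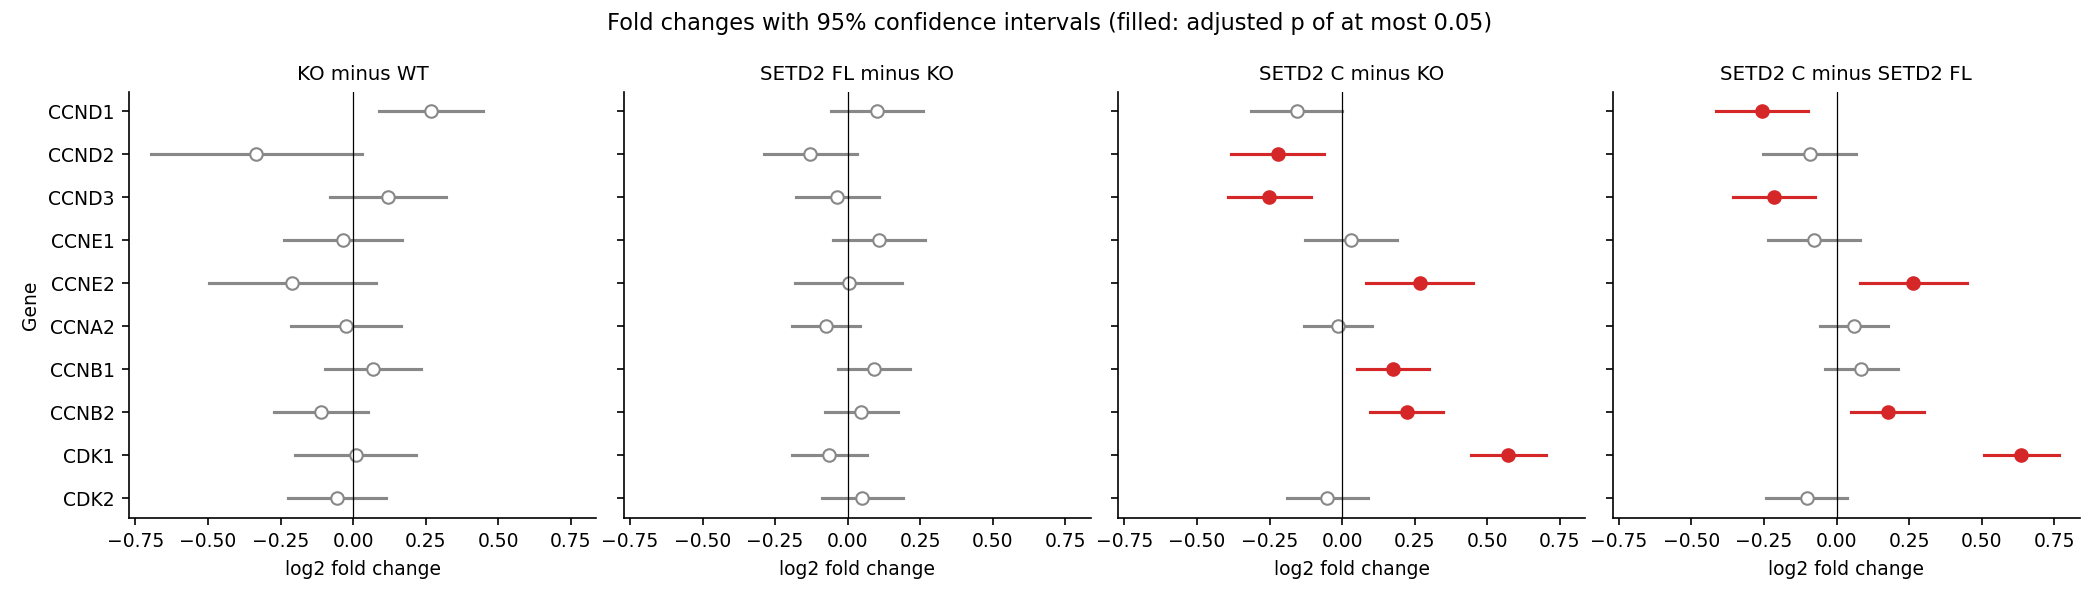
Log2 fold change of each gene in the 4 comparisons, with 95% confidence intervals from limma as bars and filled points where the adjusted p was at most 0.05. CDK1 is the rightmost point in both SETD2 C panels, at 0.57 and 0.64, and the points of CCND3 lie left of 0 in both, at -0.25 and -0.22, although its decrease was not called without scaling.

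CDK1 (ENSG00000170312), the kinase that starts mitosis, occupies chr10:60778331-60794852 of GRCh38, plus strand, and has 8 exons in its reference transcript. Its TPM was 111 and 116 in KO of the second table, 109 and 111 in SETD2 FL, and 182 and 193 in SETD2 C. Both SETD2 C libraries lay far above the other 4 libraries, among which KO and SETD2 FL overlapped. From KO to SETD2 C the log2 fold change was 0.57 (standard error 0.06, 95% confidence interval 0.44 to 0.70, adjusted p = 0.000409 from limma), a 1.49-fold rise. From SETD2 FL to SETD2 C it was 0.64 (standard error 0.06, 95% confidence interval 0.51 to 0.76, adjusted p = 0.000237 from limma), a 1.55-fold rise. These calls held in all 16 alternatives of scaling, filter, pseudocount, model and left-out library in each comparison, with log2 fold changes of 0.53 to 0.72 and 0.60 to 0.76.

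CDK2 (ENSG00000123374; chr12:55966781-55972789, plus strand), the kinase of S phase entry, did not follow. Its TPM was 83.1 and 77.8 in KO, 86.35 and 82.7 in SETD2 FL, and 86.4 and 85.5 in SETD2 C. The SETD2 C libraries were slightly above both KO libraries before scaling and slightly below them after it, and no difference was called. Its log2 fold change from KO to SETD2 C was -0.05 (95% confidence interval -0.19 to 0.09, adjusted p = 0.535 from limma). As a ratio within a library, CDK1 TPM over CDK2 TPM was 1.33 and 1.49 in KO, 1.26 and 1.34 in SETD2 FL, and 2.10 and 2.26 in SETD2 C. The ratio, which was chosen after the values were seen and was not tested, was therefore higher in both SETD2 C libraries than in any other, the 4 libraries of the first table included, where it ran from 1.28 to 1.43. Such a ratio shows unequal change and not which gene stayed level.

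The B cyclins, partners of CDK1 in mitosis, moved in the same direction by less. CCNB1 (ENSG00000134057; chr5:69167135-69178245, plus strand) had a TPM of 161 and 164 in KO, 176 and 175 in SETD2 FL, and 209 and 198.5 in SETD2 C. The 3 groups did not overlap, with SETD2 FL in between. Its rise from KO to SETD2 C was 0.18 on the log2 scale (standard error 0.05, 95% confidence interval 0.05 to 0.30, adjusted p = 0.0364 from limma). That from SETD2 FL was 0.09 and was not called (adjusted p = 0.240 from limma), although it was called without scaling and after quantile normalization. CCNB2 (ENSG00000157456; chr15:59105126-59125045, plus strand), encoding the B cyclin associated with the Golgi, had a TPM of 58.1 and 59.2 in KO, 61.2 and 61.6 in SETD2 FL, and 77.3 and 74.5 in SETD2 C. Here KO and SETD2 FL lay close together and the SETD2 C pair well above. The log2 fold change was 0.22 from KO (standard error 0.05, adjusted p = 0.0159 from limma) and 0.18 from SETD2 FL (standard error 0.05, adjusted p = 0.0358 from limma). Each of these 3 calls hung on few libraries: CCNB1 lost its call against KO without either KO or either SETD2 C library (adjusted p up to 0.183 from limma), CCNB2 lost it without KO replicate 2 or SETD2 C replicate 1 (up to 0.0902), and CCNB2 lost it against SETD2 FL with any of the 6 libraries left out (up to 0.170). Without a trend in eBayes none of the 3 was called. The share of CCNB1 in the summed B cyclin TPM hardly moved, at 73.5% and 73.5% in KO, 74.2% and 74.0% in SETD2 FL, and 73.0% and 72.7% in SETD2 C. Against its kinase, CCNB1 TPM over CDK1 TPM was 1.46 and 1.41 in KO, 1.62 and 1.58 in SETD2 FL, and 1.15 and 1.03 in SETD2 C, a ratio also chosen after the values were seen.

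CCNA2 (ENSG00000145386; chr4:121816444-121823883, minus strand), the A cyclin of dividing cells that serves S phase and G2, had a TPM of 65.55 and 64.15 in KO, 61.3 and 63.5 in SETD2 FL, and 70.0 and 72.3 in SETD2 C. The SETD2 C libraries were highest as deposited, but after scaling they overlapped KO. Its log2 fold change was -0.02 from KO (95% confidence interval -0.13 to 0.10, adjusted p = 0.840 from limma) and 0.06 from SETD2 FL (95% confidence interval -0.06 to 0.18, adjusted p = 0.376 from limma). Its direction against KO turned to positive without scaling, with rescaled TPM and after quantile normalization, and against SETD2 FL it was called higher without scaling (adjusted p = 0.0346 from limma). An increase of the size seen for CDK1 lay outside both intervals of CCNA2.

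Of the E cyclins, CCNE2 was called with SETD2 C and CCNE1 was not, and the difference between them was not tested. CCNE2 (ENSG00000175305) had a TPM of 9.13 and 8.64 in KO, 8.52 and 9.56 in SETD2 FL, and 11.9 and 12.0 in SETD2 C. Both SETD2 C libraries were above the other 4, among which the groups overlapped. The rise was 0.27 from KO on the log2 scale (standard error 0.08, 95% confidence interval 0.08 to 0.45, adjusted p = 0.0330 from limma) and 0.26 from SETD2 FL (standard error 0.08, 95% confidence interval 0.08 to 0.45, adjusted p = 0.0328 from limma). It was not called in either comparison after quantile normalization, nor without either library of the groups compared (adjusted p up to 0.137 against KO and 0.154 against SETD2 FL, from limma). CCNE1 (ENSG00000105173; chr19:29811991-29824312, plus strand) had a TPM of 19.1 and 20.2 in KO, 20.65 and 22.3 in SETD2 FL, and 21.7 and 22.7 in SETD2 C. Its SETD2 FL and SETD2 C libraries overlapped, and its log2 fold changes of 0.03 from KO and -0.08 from SETD2 FL were not called (adjusted p = 0.756 and 0.394 from limma). CCNE1 made up 67.6% and 70.0% of E cyclin TPM in KO, 70.8% and 70.0% in SETD2 FL, and 64.5% and 65.5% in SETD2 C. The share was thus lowest in the SETD2 C pair of the second table, although WT replicate 2 of the first table was equally low at 64.7%.

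Among the D cyclins the calls with SETD2 C were decreases, of CCND2 and CCND3 against KO and of CCND1 and CCND3 against SETD2 FL, and without scaling none of them was called. CCND3 (ENSG00000112576; chr6:41934934-42050357, minus strand), the most abundant D cyclin gene of the second table, had a TPM of 27.4 and 25.7 in KO, 25.9 and 26.6 in SETD2 FL, and 24.8 and 24.5 in SETD2 C. The SETD2 C libraries were the lowest of the 6, and the other groups overlapped. On the log2 scale CCND3 fell by 0.25 from KO (standard error 0.06, adjusted p = 0.0163 from limma) and fell by 0.22 from SETD2 FL (standard error 0.06, adjusted p = 0.0271 from limma). CCND2 (ENSG00000118971; chr12:4269771-4305353, plus strand) had a TPM of 16.5 and 15.4 in KO, 14.5 and 14.9 in SETD2 FL, and 14.9 and 15.2 in SETD2 C. KO was above both transfected groups, which overlapped, and CCND2 fell by 0.22 from KO to SETD2 C (standard error 0.07, adjusted p = 0.0396 from limma). From SETD2 FL to SETD2 C it was at -0.09, not called (adjusted p = 0.321 from limma), and at 0.031 without scaling. CCND1 (ENSG00000110092; chr11:69641156-69654474, plus strand), the D cyclin most often amplified in tumours, had a TPM of 14.5 and 15.1 in KO, 15.7 and 16.5 in SETD2 FL, and 14.7 and 14.6 in SETD2 C. SETD2 FL was the high group, and CCND1 fell by 0.26 from SETD2 FL to SETD2 C (standard error 0.07, adjusted p = 0.0203 from limma). Its difference of -0.16 from KO was not called (95% confidence interval -0.31 to 0.0012, adjusted p = 0.108 from limma).

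The decreases of the D cyclins were small and depended on the scaling between libraries. Without scaling the median of all genes moved up by 0.13 against KO and by 0.12 against SETD2 FL, and no D cyclin was called in either comparison: CCND3 was at -0.11 and CCND2 at -0.08 against KO, where the median of all genes was 0.18. With TPM rescaled without mitochondrial genes and SETD2, CCND3 was at -0.16 and CCND2 at -0.13 against KO, neither of them called, and CCND1 alone was called lower against SETD2 FL. Single libraries mattered too: CCND2 lost its call against KO with any of the 6 libraries left out (adjusted p up to 0.180 from limma). CCND3 lost it against KO without KO replicate 2 or either SETD2 C library (up to 0.0906), and CCND1 and CCND3 lost it against SETD2 FL without any of the 4 libraries compared (up to 0.0906 and 0.116). As shares of the summed D cyclin TPM, which need no scaling, CCND1 made up 24.8% and 26.8% in KO, 28.0% and 28.5% in SETD2 FL, and 27.1% and 26.8% in SETD2 C. CCND3 made up 46.9% and 45.8% in KO, 46.2% and 45.8% in SETD2 FL, and 45.6% and 45.1% in SETD2 C. CCND2 made up 28.3% and 27.4% in KO, 25.9% and 25.7% in SETD2 FL, and 27.3% and 28.1% in SETD2 C. SETD2 FL thus had the highest CCND1 share and the lowest CCND2 share, with no overlap with the other groups, while KO and SETD2 C overlapped in both, and these shares were not tested. The summed TPM of the D cyclins was 58.4 and 56.2 in KO, 56.2 and 58.0 in SETD2 FL, and 54.4 and 54.3 in SETD2 C.

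**Figure D3:**
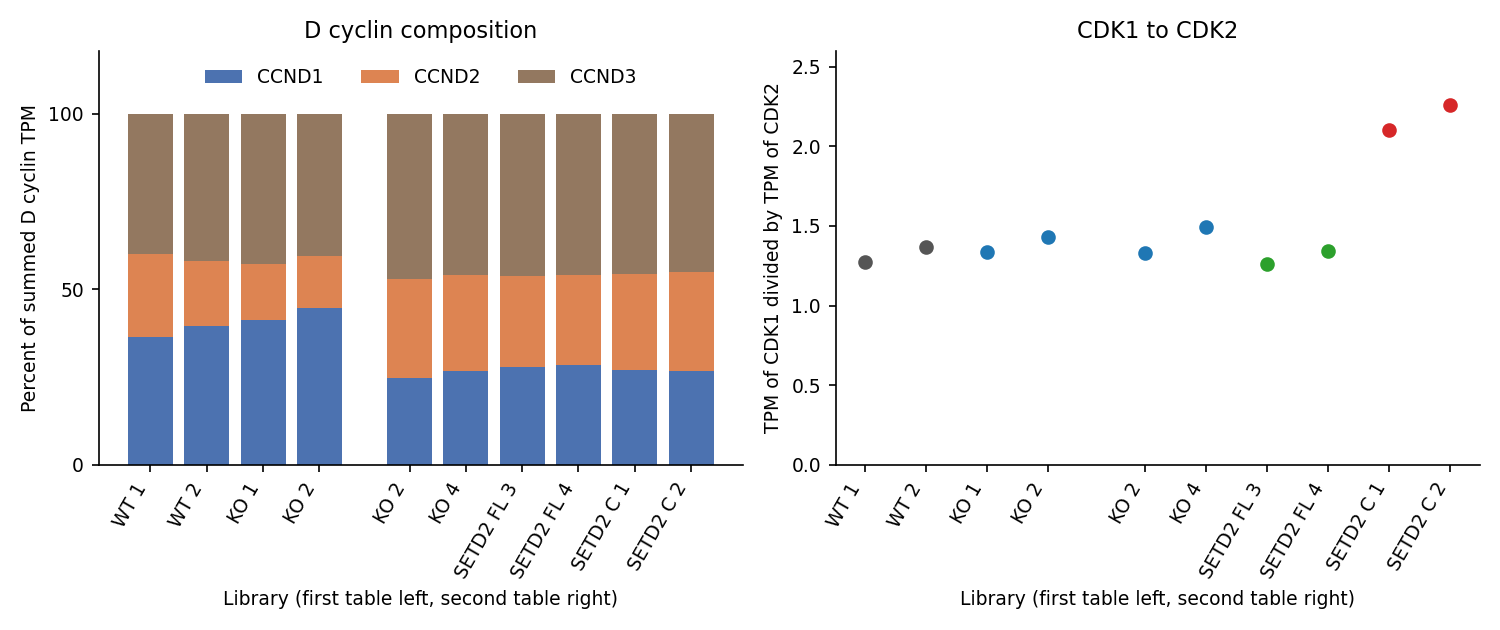
Left, the percent of summed D cyclin TPM given by CCND1, CCND2 and CCND3 in each of the 10 libraries, and right, the TPM of CDK1 divided by that of CDK2, the first table on the left of each panel. CCND3 stays between 45.1% and 46.9% in the second table, and the ratio of CDK1 to CDK2 stands at 2.10 and 2.26 with SETD2 C.

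**Figure D4:**
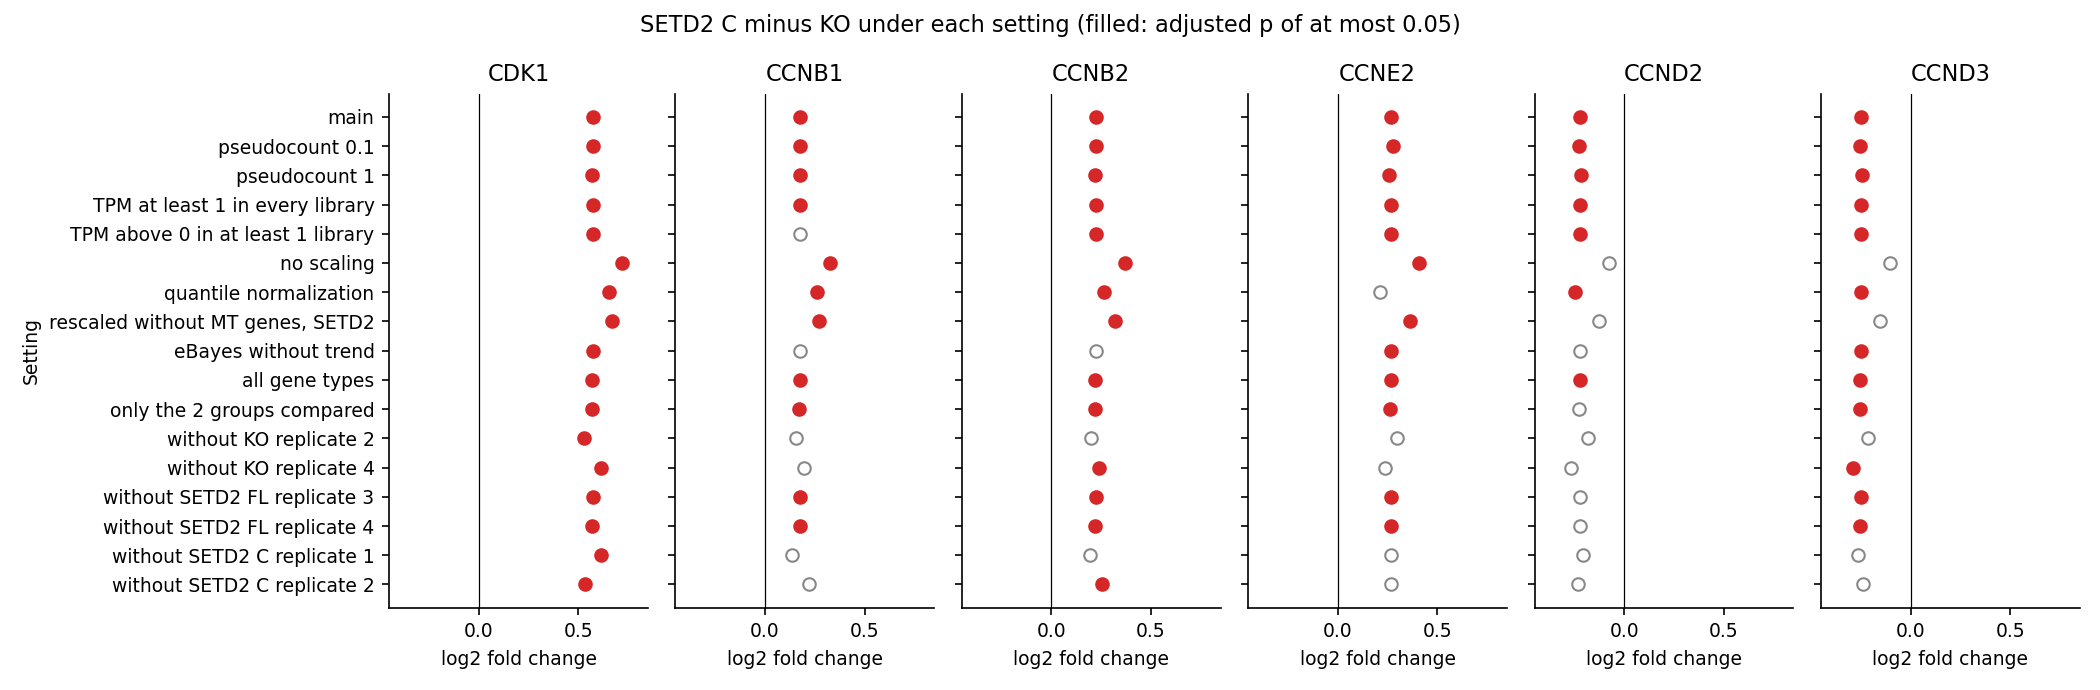
Log2 fold change from KO to SETD2 C of the 6 called genes under each processing setting, filled where the adjusted p from limma was at most 0.05. CDK1 is filled in every setting shown, while CCND2 and CCND3 are open without scaling and with TPM rescaled without mitochondrial genes and SETD2.

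SETD2 FL and KO were close for all 10 genes. In this comparison limma called 0 of the 10 higher, where 0.176% of all 15929 genes were called higher, and 0 lower, where 0.0314% of all genes were called lower. None of the 10 had an unadjusted p under 0.05 (0 genes), a level reached by 15.9% of all genes, and at 2-fold limma again called 0, where 0.0816% of all genes passed. The log2 fold changes ran from -0.13 for CCND2 (95% confidence interval -0.29 to 0.03) to 0.11 for CCNE1 (95% confidence interval -0.05 to 0.27), with a median of 0.02 beside 0.01 over all genes. The mitotic kinase CDK1 was at -0.06 (95% confidence interval -0.19 to 0.07, adjusted p = 0.608 from limma). A rise of CDK1 as large as the one seen with SETD2 C lies outside this interval. CCNB1 was at 0.09 (95% confidence interval -0.03 to 0.21, adjusted p = 0.450 from limma), and CCND1 was at 0.10 (95% confidence interval -0.06 to 0.26, adjusted p = 0.503 from limma). MKI67, a marker of dividing cells, had a TPM of 17.9 and 14.3 in KO, 24.4 and 23.1 in SETD2 FL, and 23.7 and 24.0 in SETD2 C. KO was thus lowest and the transfected groups overlapped. Its log2 fold change from KO to SETD2 FL was 0.54 (95% confidence interval 0.30 to 0.77). It was not called (unadjusted p = 0.000779 and adjusted p = 0.109 from limma). From KO to SETD2 C it was 0.42 (95% confidence interval 0.18 to 0.65). This was called (unadjusted p = 0.00348 and adjusted p = 0.0156 from limma). The call was lost without KO replicate 4 or either SETD2 C library. It was also lost with the looser filter of a TPM above 0 in 1 library (adjusted p = 0.0542 from limma). The estimate with SETD2 FL was the larger, so the call does not set SETD2 C apart. Between SETD2 FL and SETD2 C the log2 fold change of MKI67 was -0.12 and was not called (adjusted p = 0.383 from limma).

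Untreated WT and KO cells were compared in the first table to ask whether cyclin transcripts differ between them. The sample labels name no separate KO lines. Loss of SETD2 and other differences between the WT and KO cells therefore cannot be told apart. In limma 0 of the 10 genes were called higher, where 1.32% of 14741 genes were called higher, and 0 lower, where 3.17% were called lower. At 2-fold limma called 0 of the 10, where 1.36% of all genes passed, and 1 of the 10 had an unadjusted p under 0.05, beside 24.9% of all genes. That gene was CCND1, with a TPM of 18.1 and 22.1 in WT and 26.3 and 26.7 in KO. Both libraries labelled KO lay above both labelled WT, and the log2 fold change was 0.27 (95% confidence interval 0.09 to 0.45, unadjusted p = 0.00952 and adjusted p = 0.0922 from limma). CCND2 had a TPM of 11.9 and 10.3 in WT and 10.26 and 8.83 in KO. Its groups barely separated, the log2 fold change was -0.33 (95% confidence interval -0.70 to 0.03, adjusted p = 0.230 from limma), and it hung on the WT library used: without WT replicate 2 it was -0.54 and called (adjusted p = 0.0412 from limma), and without WT replicate 1 it was -0.13 and not called (adjusted p = 0.627 from limma). CCND3 had a TPM of 19.9 and 23.5 in WT and 27.4 and 24.2 in KO, higher in both KO libraries, with a log2 fold change of 0.12 that was not called (adjusted p = 0.414 from limma). The D cyclin mix therefore differed from library to library: CCND1 made up 36.3% and 39.5% of D cyclin TPM in WT and 41.1% and 44.7% in KO, and CCND2 made up 23.8% and 18.5% in WT and 16.0% and 14.8% in KO. These shares did not overlap between WT and KO and were not tested.

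The other 7 genes showed no call between WT and KO. CDK1 had a TPM of 66.0 and 89.0 in WT and 82.5 and 86.3 in KO, so that KO fell within the spread of WT. CDK2, CCNA2, CCNB2 and CCNE2 overlapped in the same way before scaling. CCNB1 had a TPM of 108 and 125 in WT and 138 and 129.5 in KO, higher in both KO libraries, with a log2 fold change of 0.07 (95% confidence interval -0.10 to 0.23, adjusted p = 0.577 from limma). Values in WT replicate 1, the library with 23.2% mitochondrial transcripts, were below those in WT replicate 2 for 9 of the 10 genes as deposited, CCND2 being the exception. The share over all genes was not counted, but the scaling factors were 0.879 for WT replicate 1 and 1.04 for WT replicate 2. After scaling, CCNB1, CCNB2, CCND2, CCND3 and CCNE1 were higher in WT replicate 1 and the others were lower. The count as deposited is therefore not a result about cyclins. Without scaling the median of all genes between WT and KO moved up by 0.12 and the higher share of called genes went from 29.3% to 53.3%, with no cyclin or CDK of the 10 called. The intervals of CDK1 (-0.20 to 0.22), CCNA2 (-0.21 to 0.16) and CDK2 (-0.23 to 0.11) leave out a change of the size that CDK1 showed with SETD2 C.

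Other genes of the cell cycle were read from 10 lists of 123 genes. CCNA1 and CRYAB passed the filter only through SETD2 C, so they had to differ and are left out of the counts with SETD2 C. Of the other 119 tested, limma called 27 higher and 17 lower with SETD2 C against KO, and 30 higher and 19 lower against SETD2 FL, where 21.1% of all genes were called higher and 15.1% lower against KO, and 21.4% and 16.8% against SETD2 FL. With CCNA1 and CRYAB included the higher calls were 29 and 32, and without scaling they were 48 and 45, with 11 and 8 lower. Without scaling calls also rose in the whole transcriptome. Of all 15929 genes, 5507 were then called higher and 1115 lower against KO, and 5189 higher and 1508 lower against SETD2 FL. In the list of mitotic kinases and checkpoint proteins limma called 9 of 18 higher and 0 lower against KO. Against SETD2 FL it called 8 higher and 0 lower, with the same shares of all genes beside both. At an unadjusted p under 0.05 there were 10 higher and 0 lower against KO, and 9 higher and 1 lower against SETD2 FL. That level was reached, in either direction, by 47.1% of all genes against KO and 48.8% against SETD2 FL, here and for the lists below. The median log2 fold change of this list was 0.20 against KO and 0.12 against SETD2 FL. BUB1, a kinase of the spindle checkpoint, had a TPM of 53.3 and 53.1 in KO, 55.0 and 57.5 in SETD2 FL, and 94.1 and 99.2 in SETD2 C. NEK2, a kinase that separates centrosomes, had a TPM of 37.2 and 34.5 in KO, 33.2 and 39.0 in SETD2 FL, and 59.9 and 59.7 in SETD2 C. Both genes resembled CDK1 in having the SETD2 C pair far above overlapping or nearby groups. Their log2 fold changes from KO were 0.71 for BUB1 (adjusted p = 0.000123 from limma) and 0.59 for NEK2 (adjusted p = 0.00107 from limma). TOP2A, the topoisomerase that untangles sister chromatids, rose by 0.42 from SETD2 FL on the log2 scale (adjusted p = 0.000697 from limma).

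Regulators of CDK activity were mixed. Of the 5 CDK phosphatases and inhibitory kinases, 0 were called higher and 1 lower against KO by limma (the same 0 and 1 at an unadjusted p under 0.05), where 21.1% and 15.1% of all genes were. The lower gene was PKMYT1, whose product keeps CDK1 inactive by phosphorylating it. PKMYT1 had a TPM of 75.1 and 78.6 in KO, 78.1 and 75.8 in SETD2 FL, and 61.5 and 57.8 in SETD2 C, the SETD2 C libraries being lowest, and it fell by 0.51 from KO (adjusted p = 0.00109 from limma). WEE1, the nuclear kinase with the same substrate, was higher by 0.36 against SETD2 FL (adjusted p = 0.0104 from limma) and was not called against KO. That WEE1 call was lost without SETD2 FL replicate 4 or SETD2 C replicate 2 (adjusted p up to 0.0706 from limma). CDC25C, a phosphatase that activates CDK1, fell by 0.21 against SETD2 FL (adjusted p = 0.0479 from limma), a call that was lost in 14 of 17 alternatives, the 2-fold rule among them. Of the 8 CDK inhibitor genes, 4 were higher and 1 lower against KO, and 6 higher and 1 lower against SETD2 FL, with medians of 0.20 and 0.43, where 21.1% of all genes were called higher and 15.1% lower against KO, and 21.4% and 16.8% against SETD2 FL. CDKN1A, encoding p21, had a TPM of 28.0 and 29.9 in KO, 31.9 and 34.4 in SETD2 FL, and 51.9 and 48.2 in SETD2 C. CDKN2D, an INK4 inhibitor of CDK4 and CDK6, had a TPM of 9.58 and 8.68 in KO, 8.0 and 8.99 in SETD2 FL, and 14.9 and 16.6 in SETD2 C. In both genes the SETD2 C pair stood alone at the top, with log2 fold changes from KO of 0.63 for CDKN1A (adjusted p = 0.000632 from limma) and 0.61 for CDKN2D (adjusted p = 0.00219 from limma). The gene called lower was CDKN2A, named after its values were seen, which encodes p16 and p14ARF and fell by 0.42 from KO (adjusted p = 0.000786 from limma) and by 0.23 from SETD2 FL (adjusted p = 0.00858 from limma).

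Among the factors that transcribe cyclin genes, 1 of 13 genes of the RB and E2F family was higher and 2 lower in each comparison with SETD2 C. For this and the next 2 lists, 21.1% of all genes were called higher and 15.1% lower against KO, and 21.4% and 16.8% against SETD2 FL. E2F4, a repressive E2F, fell by 0.54 against KO (adjusted p = 0.00155 from limma), E2F5, a close relative, fell by 0.57 (adjusted p = 0.00247 from limma), and RBL2, the p130 pocket protein of DREAM, rose by 0.34 (adjusted p = 0.0167 from limma). The RBL2 call was lost in 5 of 17 alternatives, among them leaving out KO replicate 4 (0.27) or SETD2 C replicate 2 (0.23), with an adjusted p of up to 0.1001 from limma. Of the 7 genes for MuvB, B-MYB and FOXM1, 0 were called higher and 2 lower by limma in each comparison, with 0 higher in each and 2 or 3 lower at an unadjusted p under 0.05. MYBL2, encoding B-MYB, fell by 0.24 against KO (adjusted p = 0.0140 from limma), and LIN37, a subunit of MuvB, fell by 0.32 (adjusted p = 0.0300 from limma), the latter call being lost in 8 of 17 alternatives. The MYBL2 call was lost in 6 of 17, among them no scaling (-0.096, adjusted p = 0.290 from limma), rescaled TPM (-0.15), no trend, and leaving out KO replicate 2 or SETD2 C replicate 2 (up to 0.0906). For cyclin destruction, 6 of 19 genes of the anaphase-promoting complex list were higher and 5 lower against KO, and 6 higher and 3 lower against SETD2 FL. FBXO5, which encodes the inhibitor EMI1, had a TPM of 50.6 and 52.9 in KO, 48.0 and 51.4 in SETD2 FL, and 87.5 and 93.9 in SETD2 C. ANAPC7, a subunit of the complex, had a TPM of 53.1 and 57.4 in KO, 57.5 and 59.7 in SETD2 FL, and 38.4 and 41.2 in SETD2 C. FBXO5 was thus highest and ANAPC7 lowest in the SETD2 C pair, with log2 fold changes from KO of 0.66 for FBXO5 (adjusted p = 0.000322 from limma) and -0.61 for ANAPC7 (adjusted p = 0.000571 from limma). FZR1, an activator of the complex, rose by 0.38 from KO (adjusted p = 0.00601 from limma) and by 0.32 from SETD2 FL (adjusted p = 0.0108 from limma), the latter call being lost without SETD2 FL replicate 3 or SETD2 C replicate 1 (up to 0.0648).

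In the cullin list, CRYAB aside, 1 of 8 genes was higher and 1 lower against KO, and 1 higher and 2 lower against SETD2 FL. For this and the next 3 lists, 21.1% of all genes were called higher and 15.1% lower against KO, and 21.4% and 16.8% against SETD2 FL. CUL1, the scaffold of SCF ligases, fell by 0.47 against KO (adjusted p = 0.00165 from limma), and SKP1, its adaptor, rose by 0.30 (adjusted p = 0.00518 from limma). CRYAB, a chaperone, reached 1.77 and 2.95 TPM in SETD2 C and was at most 0.44 elsewhere in the second table. CCNA1, the germ line A cyclin, was at 1.08 and 1.01 with SETD2 C and at most 0.23 elsewhere in that table. Among 10 other cyclins, CDKs and partners, CCNA1 aside, 2 were higher and 3 lower against KO, and 2 higher and 4 lower against SETD2 FL. CDK4, the kinase partner of the D cyclins, had a TPM of 246 and 253 in KO, 244 and 256 in SETD2 FL, and 225 and 209.7 in SETD2 C. Both SETD2 C values were lowest, and CDK4 fell by 0.35 against KO (adjusted p = 0.00259 from limma) and by 0.33 against SETD2 FL (adjusted p = 0.00278 from limma). Of 14 transcriptional cyclins and CDKs, 2 were called higher and 0 lower against KO by limma (3 and 2 at an unadjusted p under 0.05), and 2 higher and 2 lower against SETD2 FL. CDK19, a Mediator kinase, had a TPM of 15.6 and 15.8 in KO, 11.5 and 13.1 in SETD2 FL, and 33.7 and 38.0 in SETD2 C, with SETD2 C clearly highest (log2 fold change from KO of 1.02, adjusted p = 0.000177 from limma). Of 19 other cyclins and CDK-like kinases, 17 were tested, and 2 were higher and 2 lower against KO, and 3 higher and 1 lower against SETD2 FL. CCNG2, a cyclin linked to growth arrest, was 13.3 and 14.1 TPM in KO, 13.0 and 13.4 in SETD2 FL, and 22.6 and 28.0 in SETD2 C (log2 fold change from KO of 0.71, adjusted p = 0.00189 from limma).

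**Figure D5:**
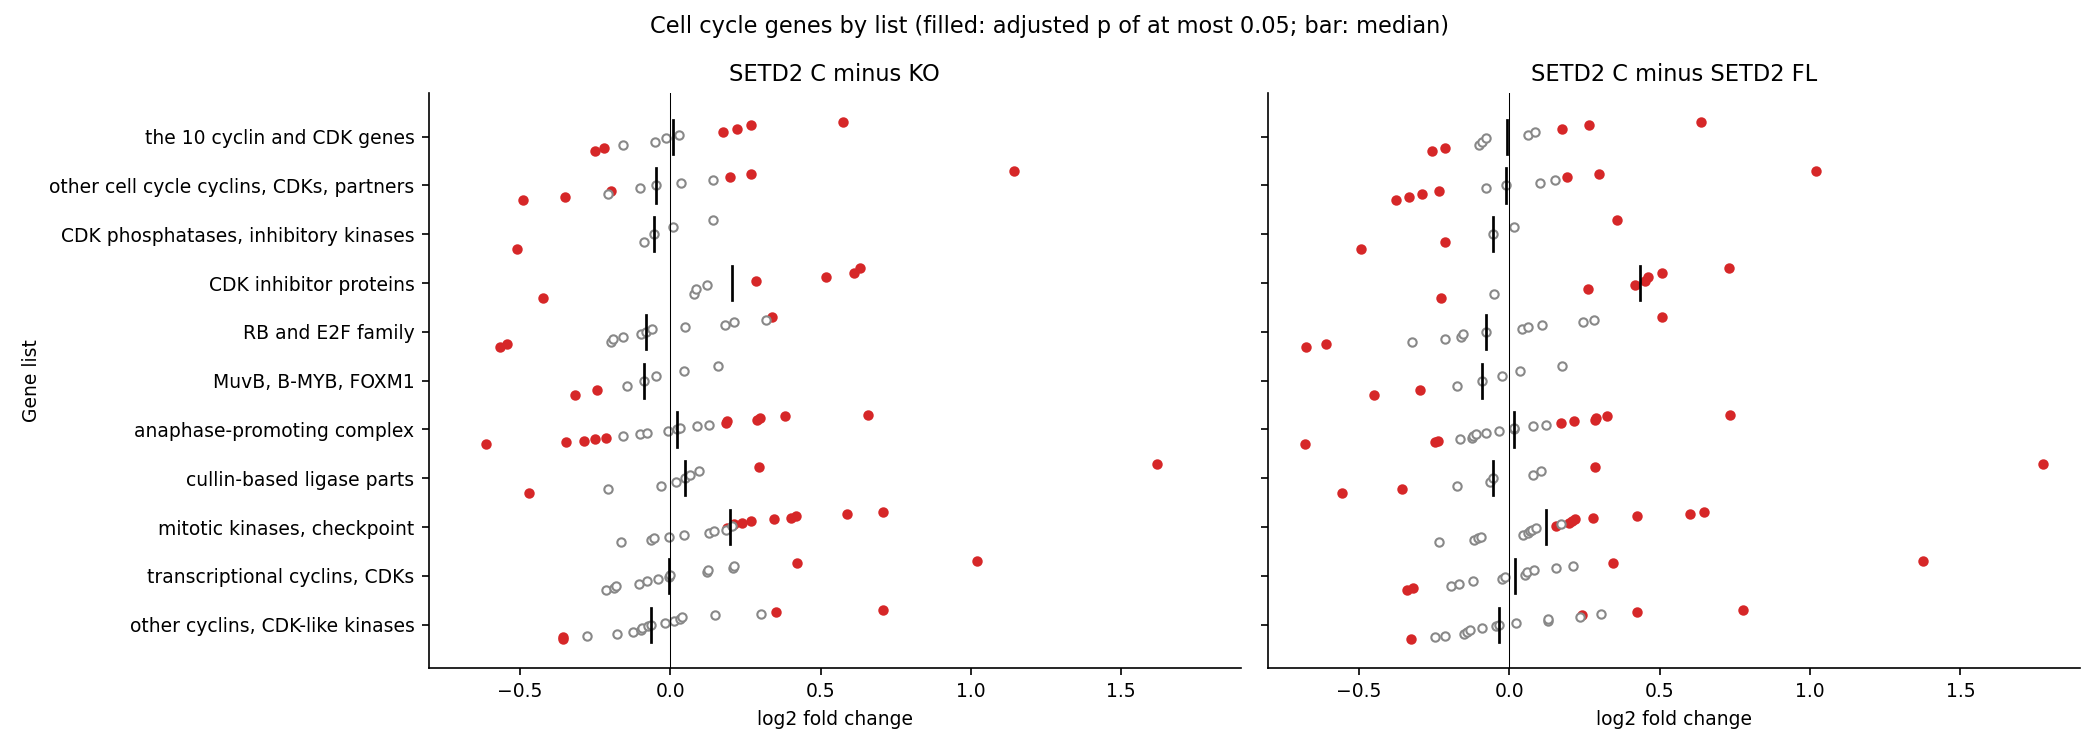
Log2 fold change with SETD2 C against KO, left, and against SETD2 FL, right, for the 10 cyclin and CDK genes and the 10 lists of other cell cycle genes, filled where the adjusted p from limma was at most 0.05, with a bar at each median. In the list of mitotic kinases and checkpoint proteins the filled points all lie right of 0, with medians of 0.20 and 0.12, and the points of CCNA1 and CRYAB, right of 1 in their lists, are of genes that passed the filter only through SETD2 C.

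Between SETD2 FL and KO limma called 0 of the 121 listed genes tested, of which 20 had an unadjusted p under 0.05 (15.9% of all genes did), and the medians of the lists lay between -0.14 and 0.08. Between WT and KO 4 of 119 tested genes were called higher and 2 lower by limma, where 1.32% and 3.17% of all genes were. Higher were CDKN2B, encoding p15, with a TPM of 6.11 and 7.55 in WT and 13.0 and 12.6 in KO (log2 fold change 0.74, adjusted p = 0.00945 from limma), and CDKN1C, encoding p57, with 2.00 and 2.52 in WT and 4.02 and 3.92 in KO (0.59, adjusted p = 0.0460 from limma). Both inhibitors had KO libraries well above WT, but the CDKN2B call was lost without either KO library (adjusted p up to 0.0664 from limma) and that of CDKN1C without WT replicate 1 or either KO library (up to 0.239). CDC25B, a phosphatase that activates CDKs, was higher by 0.38 (adjusted p = 0.0413 from limma) and lost the call with any of the 4 libraries left out (up to 0.195). CDK11B was higher by 0.45 (adjusted p = 0.0472 from limma), a call that was lost without WT replicate 1 (0.41), KO replicate 1 (0.55) or KO replicate 2 (0.35). Reads may be shared between CDK11B and its near-identical neighbour CDK11A. Such sharing was not measured, so the level of CDK11B is uncertain. CDK11A was also tested between WT and KO and was not called. E2F5 fell by 0.66 (adjusted p = 0.00848 from limma), lost without KO replicate 2 (0.0555). FBXO4, an F-box protein studied for D cyclin turnover, had a TPM of 5.38 and 6.20 in WT and 3.04 and 2.05 in KO, fell by 1.18 (adjusted p = 0.0167 from limma) and kept the call with each library left out. With the looser filter (TPM above 0 in 1 library) none of these 6 genes was called (adjusted p from 0.0514 for E2F5 to 0.149 for CDKN1C, from limma). E2F5 was also not called without scaling (0.0518), nor CDC25B, CDKN1C and CDK11B with all gene types, CDC25B and CDK11B without a trend, or CDK11B after quantile normalization.

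Finally, genes were ranked by how closely their values followed CDK1 and CCNE2, the members with the widest range of group means in the second table, 0.64 and 0.27 on the log2 scale. Over the 6 libraries and 10208 genes with a mean TPM of at least 5, the smallest root mean square differences from CDK1 in centred log2 values were those of TTC28-AS1 (0.02), MOSPD1 (0.02) and PCGF5 (0.03). MOSPD1 had a TPM of 20.4 and 20.7 in KO, 19.96 and 20.8 in SETD2 FL, and 33.7 and 36.1 in SETD2 C. The shape is the one seen for CDK1 at a lower level: KO and SETD2 FL together and SETD2 C above. TTC28-AS1 is antisense to TTC28, and whether strand was used in the counting is not given in the sources used here. For CCNE2 the closest were UBL3 (0.02), STK35 (0.02) and TAF9 (0.02), with TAF9 at 96.1 and 94.0 in KO, 93.6 and 101 in SETD2 FL, and 125 and 125 in SETD2 C. Likeness over 6 libraries that share these groups is a description.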

How the data were processed

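RNA sequencing of HEK293T cells was taken from 10 libraries in 2 tables whose values, as deposited, are TPM per gene. The authors aligned paired reads to hg38 with STAR 2.6.1c and Ensembl 96 gene models and computed TPM with RSEM 1.3.0; per the labels, RNA was depleted of ribosomal RNA and enriched for polyadenylated RNA. The files give no counts, so depth is unknown and the authors' count-based test could not be run. The 10 genes and the lists of other genes were chosen with earlier results of these data known. ChIP samples of the series were left out because they hold no transcript levels.

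Gene types came from GENCODE 44 (58472 of 58884 genes matched by identifier, 18 by symbol, 394 unmatched). A looser symbol rule was replaced by a stricter one after an earlier run, with no effect on which of the 10 genes were called. Protein-coding and long noncoding genes were kept where TPM reached 0.5 in 2 or more libraries, 14741 in the first table and 15929 in the second. Libraries were scaled by the median ratio to the geometric mean over genes at TPM 1 or more throughout, and log2 values with a pseudocount of 0.5 were fitted with limma 3.58.1 in R 4.3.3 (eBayes with trend), within each table. P-values are two-sided and were adjusted by Benjamini-Hochberg over all genes tested, with a call at 0.05. The procedure was also run on simulated data, whose outcome is not given here, so nothing is concluded from that run. With 2 libraries per group an exact permutation test cannot go below 0.333. Other steps used Python 3.11.15.

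Genes named beside the 10 are SETD2, MKI67, in each list up to 3 called genes per comparison with the largest absolute log2 fold change, and the 3 genes (mean TPM of at least 5) nearest in pattern to each of the 2 members with the widest range of group means in the second table. CDKN2A falls outside these rules and was named after its values were seen. Cell type markers, and CDK11A and TTC28 as neighbours of other genes, were also named outside them. Not every gene that the rules select is described: CDK3, CDK5, CDK12, CDK18, CCNG1, CCNL1 and AMBRA1 are left out. Alternatives were pseudocounts of 0.1 and 1, looser and stricter filters, no scaling, quantile normalization, TPM rescaled without mitochondrial genes and SETD2, eBayes without trend, all gene types, a 2-fold rule, fits of only the 2 groups compared, a replicate block in the first table, and each library left out in turn.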

Additional observations from a re-analysis of the deposited data

How the results depend on the processing

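Across 660 results for single genes under an alternative, 563 kept direction and side of the threshold, 66 lost the threshold, 4 gained it and 27 turned in sign. Every value that turned in sign had not been called. The calls of CDK1 with SETD2 C held in 16 of 16 alternatives in each comparison, the 2-fold rule aside, while every other call among the 10 genes was lost in at least 3 of 16. Beside the losses given with each gene, calls were lost with the looser filter for CCNB1 against KO (adjusted p = 0.0591 from limma) and CCNE2 against SETD2 FL (0.0502), without a trend for CCND2 against KO (0.0569) and CCND3 against SETD2 FL (0.0558), and in fits of only the 2 groups for CCND2 against KO (0.0521) and CCNB2 against SETD2 FL (0.0525). Unless fewer libraries are the reason, the cause was not tested.

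Without scaling, log2 fold changes turned in sign between WT and KO for CCNA2 (0.10), CCNB2 (0.018), CCNE1 (0.093) and CDK2 (0.073). Against KO they turned with SETD2 C for CCNA2 (0.13) and CDK2 (0.10), and against SETD2 FL for CCND2 (0.031), CCNE1 (0.047) and CDK2 (0.025). In limma the genes called with SETD2 C then numbered 0 lower against KO, and 5 higher and 0 lower against SETD2 FL, beside 2, 3 and 2 after scaling. Of all 15929 genes, 1115 were then called lower against KO, and 5189 higher and 1508 lower against SETD2 FL.

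With TPM rescaled without mitochondrial genes and SETD2, CCNA2 was at 0.081 and CDK2 at 0.045 from KO to SETD2 C, and CCND3 was at 0.027 and CDK1 at 0.00027 from KO to SETD2 FL. Genes called lower by limma with SETD2 C then numbered 0 against KO and 1 against SETD2 FL, beside 1472 and 2313 of all 15929 genes. After quantile normalization CCNA2 was at 0.027 from KO to SETD2 C, CCNE2 at -0.00065 from KO to SETD2 FL, and CDK1 at -0.032 from WT to KO.

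Without a trend in eBayes 2 genes were called higher and 1 lower from KO to SETD2 C, and 1 lower from SETD2 FL. Of all 15929 genes, 3100 were then called higher and 1799 lower from KO, and 3158 higher and 2120 lower from SETD2 FL. A fit of only the 2 groups called 1 lower from KO to SETD2 C, where 2383 of 15723 genes were called lower. The 2-fold rule called 0 higher and 0 lower in limma in both SETD2 C comparisons, where 4.06% and 3.79% of all genes passed. An unadjusted p under 0.05 was reached by 6 and 5 genes, beside 47.1% and 48.8% of all genes.

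With a library left out, the other library of its group is assumed to vary like the other groups. From KO to SETD2 C, CCNE1 then ran from -0.018 (without KO replicate 2) to 0.077 (KO replicate 4), and CCNA2 from -0.034 (SETD2 C replicate 2) to 0.0038 (SETD2 C replicate 1). From KO to SETD2 FL, CCND3 ran from -0.074 (KO replicate 4) to 0.0016 (KO replicate 2), CCNE2 from -0.049 (SETD2 FL replicate 4) to 0.055 (SETD2 FL replicate 3), and CDK2 from -0.0086 (SETD2 FL replicate 3) to 0.11 (SETD2 FL replicate 4). From WT to KO, CCNA2 ran from -0.10 (WT replicate 1) to 0.045 (WT replicate 2), CDK1 from -0.088 (WT replicate 1) to 0.10 (WT replicate 2), and CCNE1 from -0.11 (WT replicate 2) to 0.036 (WT replicate 1).

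The counts moved as well when a library was left out. From KO to SETD2 C, 1 to 4 of the 10 genes were called higher and 0 to 1 lower by limma. From SETD2 FL to SETD2 C, 1 to 2 were called higher and 0 to 2 lower, and from WT to KO 0 to 1 lower, the 1 being CCND2 without WT replicate 2. Over all genes tested, calls from KO to SETD2 C ran from 1733 to 3301 higher and from 1330 to 2351 lower. Calls from SETD2 FL to SETD2 C ran from 1867 to 3345 higher and from 1569 to 2622 lower. Calls from KO to SETD2 FL ran from 2 (without KO replicate 4) to 16 higher, beside 28, and from 0 to 7 lower, beside 5. Calls from WT to KO ran from 31 to 473 higher and from 125 to 767 lower. Without KO replicate 1 or KO replicate 2 the higher calls from WT to KO were fewest, at 35 and 31, beside 194 with all libraries.

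Among the listed other cell cycle genes, CCNA1 and CRYAB included, calls from KO to SETD2 C ran with a library left out from 18 (without SETD2 C replicate 2) to 27 higher, beside 29, with 19 without SETD2 C replicate 1, and from 12 to 17 lower. From SETD2 FL to SETD2 C they ran from 20 (without SETD2 FL replicate 3 or SETD2 C replicate 2) to 29 higher, beside 32, and from 12 (without SETD2 C replicate 2) to 18 lower, beside 19. From WT to KO they ran in limma from 0 (without KO replicate 1 or KO replicate 2) to 6 higher, beside 4, with 1 without WT replicate 1, and from 1 (without KO replicate 2) to 6 (without WT replicate 2) lower, beside 2.

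A replicate block in the first table, from the numbers in the labels, called 0 of the 10 genes in limma and 439 genes higher and 825 lower in all. The labels do not say that equal numbers were handled together. With all libraries kept, calls from WT to KO among the listed other cell cycle genes ran from 0 to 6 higher, beside 4. They ran from 0 to 6 lower, beside 2. Both were fewest with the looser filter, with most higher without scaling and most lower with the block. Over all genes they ran from 20 (looser filter) to 439 (block) higher, beside 194, and from 66 to 825 lower, beside 467.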
